A study of Homo sapiens with 6 samples.

Results

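The nuclear genes for the subunits of the mitochondrial respiratory chain and ATP synthase were followed in MDA-MB-231 cells, a human breast cancer line with mesenchymal features. Members were chosen by their gene symbols alone, as the structural subunits of complexes I to V, and genes named as assembly factors and pseudogenes were left out. The RefSeq gene table holds 87 protein-coding genes of this kind, of which 83 were matched to a probe and 80 were tested among the 11974 genes of the arrays. By complex, 36 of 36 matched genes were tested for complex I, 4 of 4 for complex II, 9 of 9 for complex III, 13 of 16 for complex IV and 18 of 18 for complex V. COX4I2, COX6A2 and COX8C were matched but were too dim to be tested, and COX7A1, UQCRHL and the readthrough genes ATP5MF-PTCD1 and NDUFC2-KCTD14 were not matched to a probe. Cells received a scrambled control or a precursor of hsa-miR-205-5p or of hsa-miR-214-3p at 30 nM, and RNA was taken at 72 h according to the series' design text. Each group had 2 arrays, and all cells were of the same line without further treatment named in the labels. A transfected precursor raises the mature miRNA far outside its usual control, and the arrays read RNA and not protein or respiration.

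Complexes I and II pass electrons from NADH and succinate to ubiquinone, complex III passes them on to cytochrome c, and complex IV, cytochrome c oxidase, passes them to oxygen. Complexes I, III and IV pump protons across the inner mitochondrial membrane, and complex V, the ATP synthase, uses the return flow to make ATP. Complex II is entirely nuclear encoded and is also an enzyme of the tricarboxylic acid cycle, while the other complexes join nuclear subunits to subunits made from mitochondrial DNA. No probe was matched to a mitochondrially encoded subunit, so the values below cover the nuclear share of each complex. A mature miRNA guides the silencing complex to messenger RNAs mainly through its seed, bases 2 to 8.

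The mature sequences are shown because the groups differ in them, with the seed in capitals. Both come from RefSeq (GRCh38.p14), hsa-miR-205-5p from MIR205 at chr1:209432166-209432187 on the plus strand and hsa-miR-214-3p from MIR214 at chr1:172138816-172138837 on the minus strand.
hsa-miR-205-5p: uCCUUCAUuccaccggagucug
hsa-miR-214-3p: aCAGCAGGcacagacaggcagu
The seeds differ, so the miRNAs do not belong to the same seed family.

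Signals are given as normalized log2 signal, which is log2 of the processed signal less the 75th percentile of the array. On the 6 arrays, between 35.4% and 42.2% of spots were well above background and 0 were saturated, and the number of arrays limits the precision. A gene was represented by its brightest probe. It was called lower or higher when the adjusted p of limma was under 0.05 and the change was at least 2-fold. Of the 80 subunits tested, 78 were well above background on all 6 arrays. The line was checked by its markers. VIM, CD44, AXL, CAV1, MSN and EGFR were well above background on 6 of 6 arrays, and ESR1, PGR and FOXA1 on 0 of 6. GATA3 and CDH1, luminal markers that the line should lack, were also well above background on 6 of 6 arrays.

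Relative to scrambled control, 3 of the 80 subunits were called lower with hsa-miR-205-5p, and each sits in a different complex. COX4I1, a structural subunit of complex IV, was lower by 4.65-fold, NDUFA13, an accessory subunit of complex I also known as GRIM-19, by 3.83-fold, and SDHB, the iron-sulfur subunit of complex II, by 2.73-fold. NDUFA6, another accessory subunit of complex I, was called higher by 2.29-fold. Over all genes tested, 7.98% were called lower and 4.79% higher, so neither count stands above the background. With each array scaled to its median instead, 9 subunits were called lower and 0 higher, where 15.7% of all genes were called lower and 1.76% higher, and with the normexp background correction 6 and 0, against 5.15% and 1.12% of all genes. The bulk of the subunits lay slightly above 0. Their median log2 fold change was 0.24 against 0.08 over all genes, and 25 of the 80 subunits lay below 0 against 45.4% of all genes. By complex the median was 0.14 for complex I, 0.36 for complex II, 0.27 for complex III, 0.21 for complex IV and 0.27 for complex V. Relative to all genes, the median of the subunits ran from −0.15 to 0.28 over 16 other settings, below 0 in 2 of them, so its direction depends on the processing.

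**Figure D1:**
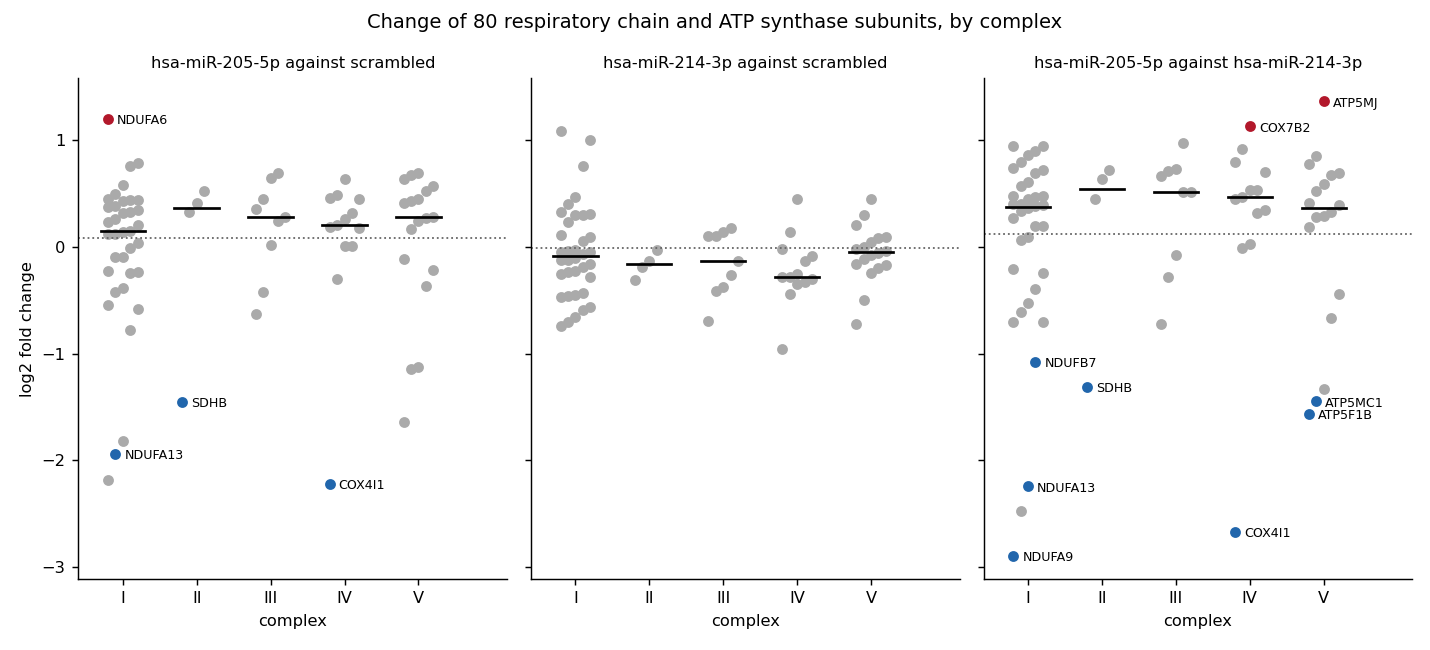
The log2 fold change of the 80 subunits is plotted by complex for the 3 comparisons, with 1 point per gene, the median of a complex as a black bar and the median of all genes tested as a dotted line. Blue points were called lower and red points higher, 3 and 1 for hsa-miR-205-5p against scrambled, 0 and 0 for hsa-miR-214-3p against scrambled, and 7 and 2 between the precursors.

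COX4I1 had normalized log2 signals of 3.78 and 3.89 with hsa-miR-205-5p, 5.82 and 6.28 in the scrambled control and 6.53 and 6.47 with hsa-miR-214-3p. Both hsa-miR-205-5p arrays lay below all 4 other arrays. Against the control the log2 fold change came to −2.22 with a standard error of 0.21 (limma, adjusted p = 0.00797). NDUFA13 had signals of 4.74 and 4.64 with hsa-miR-205-5p, 6.41 and 6.84 in the control and 6.93 on both hsa-miR-214-3p arrays. The hsa-miR-205-5p arrays again lay below the other 4, and the log2 fold change against the control was −1.94 with a standard error of 0.20 (limma, adjusted p = 0.00838). SDHB had signals of 3.55 and 2.91 with hsa-miR-205-5p, 4.40 and 4.95 in the control and 4.55 and 4.53 with hsa-miR-214-3p. The hsa-miR-205-5p arrays lay below the other 4 here too, with more spread, and the log2 fold change was −1.45 with a standard error of 0.29 (limma, adjusted p = 0.0285). NDUFA6 had signals of 1.69 and 1.60 with hsa-miR-205-5p, 1.32 and 1.58 with hsa-miR-214-3p and 0.43 and 0.46 in the control. All 4 precursor arrays lay above both control arrays. Its log2 fold change with hsa-miR-205-5p was 1.19 with a standard error of 0.17 (limma, adjusted p = 0.013). With 2 arrays per group such separation is common. Of all 11974 genes, 3436 lay lower and 4373 higher with hsa-miR-205-5p than in the control without overlap.

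**Figure D2:**
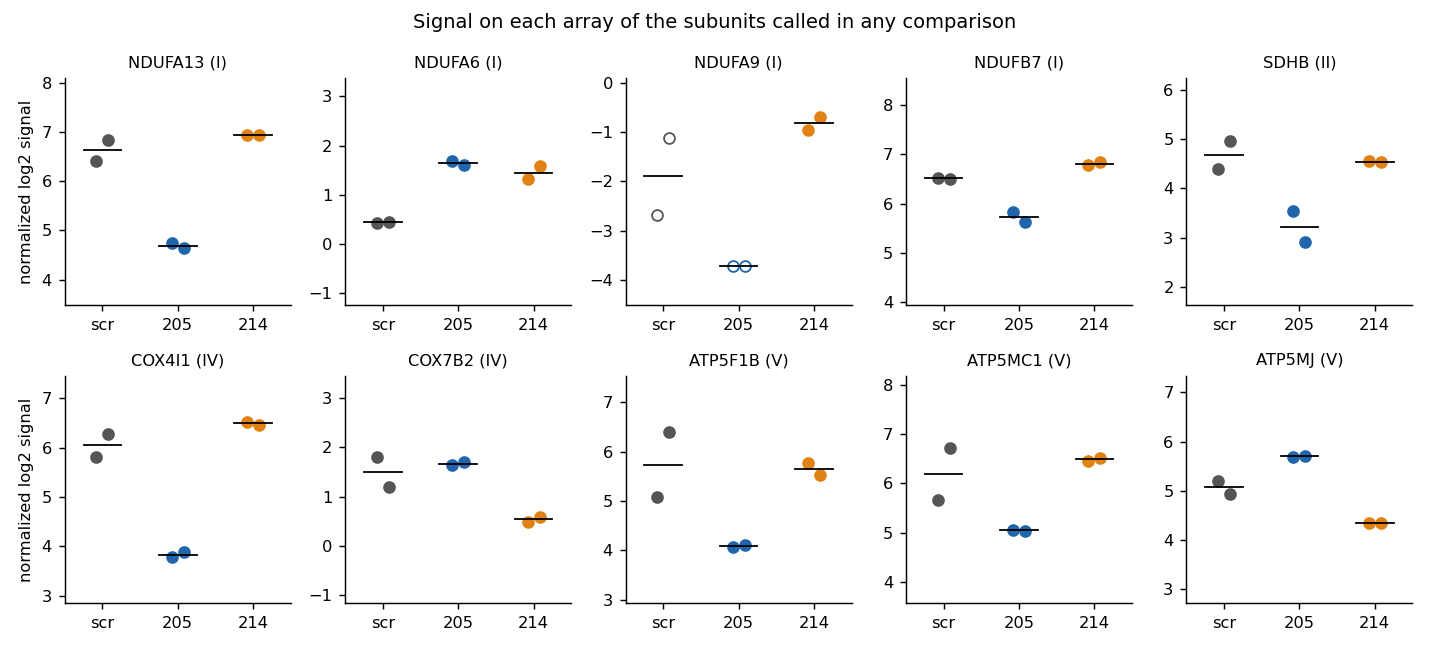
Normalized log2 signal on each array is plotted for the 10 subunits called in any comparison, with the complex in brackets, the scrambled control in grey, hsa-miR-205-5p in blue and hsa-miR-214-3p in orange. Bars are group means, open circles mark groups in which fewer than 2 arrays were well above background (NDUFA9), and each panel spans the same height on the log2 axis.

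The calls of COX4I1 and NDUFA13 were kept in 16 of 17 other settings, that of NDUFA6 in 12 and that of SDHB in 10. Without hsa-miR-205-5p replicate 2, limma called 0 of all 11974 genes in either direction, and so 0 subunits lower (6 at unadjusted p) and 0 higher (1 at unadjusted p), although COX4I1 stayed at −2.28 (adjusted p = 0.0559) and NDUFA13 at −1.89 (adjusted p = 0.058). The call of NDUFA6 was also lost without hsa-miR-205-5p replicate 1 (adjusted p = 0.0615). The call of SDHB was lost without scrambled control replicate 2 (−1.17, adjusted p = 0.077), without hsa-miR-205-5p replicate 2 (−1.13, adjusted p = 0.112) and without either hsa-miR-214-3p array, which left its change as it was (adjusted p = 0.0757).

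Without a limit on fold, 5 subunits passed an adjusted p under 0.05 downward and 5 upward with hsa-miR-205-5p, against 11.3% and 9.80% of all genes. The further falls were NDUFB7 of the complex I membrane arm, at −0.78 on the log2 scale (limma, adjusted p = 0.0287), and UQCRC1, a core subunit of complex III, with −0.63 (adjusted p = 0.0476). The further rises were NDUFB9 at 0.79 and NDUFA8 at 0.75 in complex I, ATP5MF at 0.67 in the membrane part of ATP synthase and COX7B at 0.63 in complex IV, with adjusted p between 0.0261 and 0.0467 from limma. The other kept probe of ATP5MF lay at 0.21 (adjusted p = 0.372). These changes were under 2-fold.

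In all, 7 subunits measured on at least 1 hsa-miR-205-5p array were at least 2-fold lower there, and 4 of them were not called. ATP5F1B, the catalytic beta subunit of ATP synthase, had 4.07 and 4.10 against 5.07 and 6.39, a log2 fold change of −1.64 (limma, adjusted p = 0.0521). ATP5MC1, which encodes subunit c of the rotor ring, lay at −1.15 (adjusted p = 0.0747) and ATP5F1C, the gamma subunit that turns within the catalytic head, −1.13 (adjusted p = 0.271). NDUFA9, a complex I subunit near the site of ubiquinone reduction, was well above background on 0 of 2 hsa-miR-205-5p arrays and on 1 of 2 control arrays. It was not called (adjusted p = 0.0573), no change is given for it, and it is not among the 7.

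In all 7 of these subunits scrambled control replicate 1 lay below replicate 2, by 0.44 on the log2 scale in NDUFA13 and more in the others, with a median difference of −1.05 (replicate 1 minus replicate 2). Among the 72 subunits that were not 2-fold lower this held for 19, and the median difference was 0.21. The same held over the whole arrays. Control replicate 1 was the lower in 73.3% of the 956 genes called lower, in 36.3% of the 10445 genes not called and in 25.7% of the 573 genes called higher. The part of the control difference in the falls was not tested. Against control replicate 1 alone the mean of the hsa-miR-205-5p arrays differed by −1.99 for COX4I1, −1.72 for NDUFA13 and −1.17 for SDHB, and against replicate 2 alone by −2.45, −2.16 and −1.73, so these 3 were at least 2-fold lower against either array. ATP5F1C differed by −0.08 from replicate 1 and by −2.17 from replicate 2. Without scrambled control replicate 1, limma called 8 subunits lower and 2 higher, where 11.7% of all genes were called lower and 8.89% higher, with ATP5F1B, ATP5MC1 and ATP5F1C among the further lower calls and UQCRQ at 1.16 as the further rise.

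**Figure D3:**
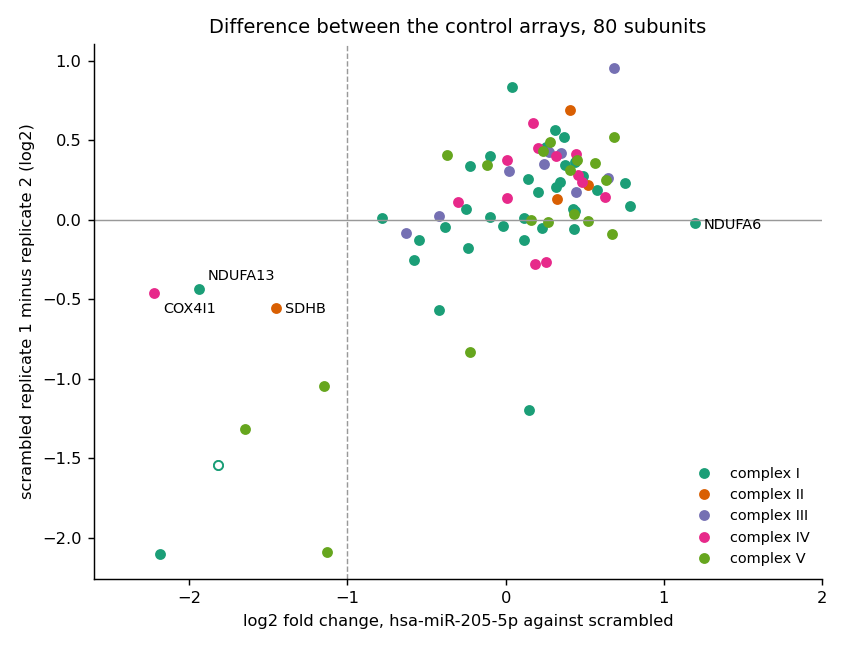
Each of the 80 subunits is placed by its log2 fold change with hsa-miR-205-5p against scrambled (horizontal) and by the difference between both scrambled control arrays, replicate 1 minus replicate 2, on the log2 scale (vertical), with colours for the complexes and names for the called subunits. The open circle is NDUFA9, too dim on both hsa-miR-205-5p arrays to be measured, and the 7 filled points left of the dashed line, which marks a 2-fold fall, lie below 0 on the vertical axis, against 19 of the 72 to its right.

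A list of 25 core subunits holds those that carry cofactors or catalytic sites and some that form the frame around them. With hsa-miR-205-5p, 13 of them lay below 0, 2 were called lower and 0 higher at a median of −0.10, while of the other 55 subunits 12 lay below 0, 1 was called lower and 1 higher at a median of 0.26. Over all genes 45.4% lay below 0, 7.98% were called lower and 4.79% higher, so the calls of the core subunits are near the background. In complex I, NDUFS3 lay at −0.58 and NDUFS1 at 0.43, with NDUFS7 at −0.10, NDUFS8 at −0.10, NDUFV1 at 0.31 and NDUFV2 at 0.15, and none of these passed an adjusted p under 0.05. NDUFV2, which holds an iron-sulfur cluster beside the NADH site, again differed between the control arrays, at 5.09 and 6.29. In complex III, UQCRC2 lay at 0.44, the Rieske protein UQCRFS1 at 0.27 and cytochrome c1 (CYC1) at −0.42 (adjusted p = 0.105 from limma). In complex IV, COX5A, COX5B and COX6C lay at 0.21, 0.48 and 0.45, beside the fall of COX4I1. In the ATP synthase, ATP5F1A, ATP5F1D and ATP5F1E lay at −0.22, −0.37 and −0.11, and ATP5PO, in the peripheral stalk, at 0.69 (adjusted p = 0.0883).

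With hsa-miR-214-3p, limma called 0 of the 80 subunits lower and 0 higher than in the scrambled control, where 2.02% of all genes were called lower and 1.09% higher. At unadjusted p with the 2-fold limit the counts were also 0 and 0. With no limit on fold, 0 subunits passed an adjusted p under 0.05 in either direction, against 2.08% and 1.20% of all genes. Limma's unadjusted p with no limit on fold gave 7 lower and 3 higher subunits, beside 1610 and 1293 of all 11974 genes. Neither count stands above the background. NDUFA6 came nearest, at 1.00 on the log2 scale with a standard error of 0.17 and an adjusted p just over the threshold (limma, 0.05005). The subunits as a whole lay slightly below 0, with a median log2 fold change of −0.12 against −0.01 over all genes, and 55 of the 80 were below 0 against 51.0% of all genes. By complex the median was −0.28 for complex IV, −0.16 for complex II, −0.14 for complex III, −0.09 for complex I and −0.05 for complex V. In complex IV, 11 of 13 subunits lay below 0, the lowest being COX7B2 at −0.95 (adjusted p = 0.101), and the others were COX5B at 0.14 and COX4I1 at 0.45 (adjusted p = 0.271). Over the 4 pairs of a precursor and a control array the complex IV median ran from −0.36 to −0.04. Without scrambled control replicate 2, which leaves 1 control array, COX7B2 lay at −1.26 and NDUFA6 and NDUFV2 at 1.01 and 1.36. NDUFA9 passed the filter on dim probes only through the hsa-miR-214-3p arrays, and the control array that remained was not well above background, so no change is given for it.

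Set against each other, the precursors had more calls, among the subunits as over all genes. hsa-miR-205-5p had 7 subunits called lower and 2 called higher than hsa-miR-214-3p, where 11.3% of all genes were called lower and 9.19% higher. Neither count stands above the background. With each array scaled to its median the counts were 8 and 1, against 15.1% and 5.31% of all genes. Without a limit on fold, 10 were lower and 20 were higher, against 16.0% and 17.9% of all genes. The 20 higher subunits were 7 of complex I, 1 of complex II, 3 of complex III, 3 of complex IV and 6 of complex V. This comparison uses the same hsa-miR-205-5p arrays as the comparison with the control, so their values are given side by side and not as separate support.

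COX4I1 was lower than with hsa-miR-214-3p by 6.34-fold (−2.67 on the log2 scale, limma, adjusted p = 0.00386), NDUFA13 by 4.73-fold (−2.24, adjusted p = 0.00395) and SDHB by 2.49-fold (−1.31, adjusted p = 0.0254). NDUFB7 had signals of 5.83 and 5.64 with hsa-miR-205-5p, 6.78 and 6.84 with hsa-miR-214-3p and 6.52 and 6.51 in the control. The groups did not overlap, and NDUFB7 was lower by 2.11-fold (log2 fold change −1.08, adjusted p = 0.00879). Between the precursors, 4150 of all 11974 genes lay lower and 5474 higher without overlap. In the ATP synthase, ATP5F1B had signals of 5.77 and 5.53 with hsa-miR-214-3p, above the hsa-miR-205-5p arrays, and was lower with hsa-miR-205-5p by 2.95-fold (adjusted p = 0.0435). ATP5MC1 had 5.06 and 5.03 against 6.46 and 6.52 with hsa-miR-214-3p and was lower by 2.72-fold (adjusted p = 0.0309). NDUFA9 passed the filter on dim probes through the hsa-miR-214-3p arrays alone, so it had to differ there. It was called lower (limma, adjusted p = 0.0125). As neither hsa-miR-205-5p array measured it above background, the fall is given as a limit, at least 1.73-fold. That limit compares the hsa-miR-214-3p mean with the dimmest signal still well above background on each hsa-miR-205-5p array, or with the signal of the probe itself where that was higher.

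ATP5MJ, a small subunit of the ATP synthase membrane part, had signals of 5.69 and 5.71 with hsa-miR-205-5p, 4.35 and 4.34 with hsa-miR-214-3p and 5.19 and 4.95 in the control. The control lay between the precursors, and hsa-miR-205-5p was higher than hsa-miR-214-3p by 2.57-fold (1.36 on the log2 scale, standard error 0.16, limma, adjusted p = 0.00561). Against the control neither precursor passed, at 0.63 (adjusted p = 0.0508) and −0.73 (adjusted p = 0.0834). COX7B2, the isoform of COX7B known from testis, had signals of 1.64 and 1.70 with hsa-miR-205-5p, 0.49 and 0.58 with hsa-miR-214-3p and 1.80 and 1.19 in the control, and was higher with hsa-miR-205-5p than with hsa-miR-214-3p by 2.18-fold (adjusted p = 0.0216). Among changes under 2-fold, the Rieske protein UQCRFS1 was higher with hsa-miR-205-5p by 0.97 on the log2 scale (adjusted p = 0.0193), NDUFV3 and NDUFA1 by 0.94 each (adjusted p = 0.0104 and 0.0191), COX7B by 0.91 (adjusted p = 0.0128), COX6C by 0.79 (adjusted p = 0.0339), SDHD by 0.72 (adjusted p = 0.0305) and ATP5PO by 0.84 (adjusted p = 0.0396). UQCR10 passed on its brightest probe at 0.73 (adjusted p = 0.0393), while its other 2 kept probes lay at −0.11 and 0.13. UQCRC1 was lower, at −0.72 (adjusted p = 0.024).

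These calls held unevenly over the other settings. Those of COX4I1 and NDUFA13 were kept in 16 of 17, that of ATP5MJ in 15, those of NDUFB7 and SDHB in 13 each, that of ATP5MC1 in 12 and that of COX7B2 in 10. That of ATP5F1B was kept in 8 of 17, with an adjusted p of up to 0.177 in the others (limma). The call of NDUFA9 was kept in 11 of the 16 settings in which it was tested. As NDUFA9 had to differ through the filter on dim probes, its count does not show how firmly the call held.

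Of the core subunits, 11 of 25 lay below 0 in this comparison and 3 were called lower, against 11 of the other 55 below 0 with 4 called lower and 2 higher, and 43.9% of all genes below 0, where 11.3% were called lower and 9.19% higher. The median over the subunits was 0.40 against 0.12 over all genes, and by complex it was 0.54 for complex II, 0.51 for complex III, 0.46 for complex IV, 0.37 for complex I and 0.36 for complex V. Over the 4 pairs of arrays the complex III median ran from 0.48 to 0.62 and that of complex IV from 0.38 to 0.50, while complex II, with 4 genes, ran from −0.05 to 0.69. The complex II value rests on the choice of probe. With the mean over all kept probes its median was −0.89 relative to all genes. Of the 4 SDHA probes, described below, 3 were called lower in this comparison, at −1.88, −1.67 and −1.80, and SDHA was then called lower at −1.23 (limma, adjusted p = 0.0127). The counts moved when single arrays were left out. Without hsa-miR-214-3p replicate 2, limma called 0 of all 11974 genes in either direction, and so 0 subunits lower (7 at unadjusted p) and 0 higher (2 at unadjusted p). Without hsa-miR-214-3p replicate 1, it called 2 lower and 0 higher (6 and 6 at unadjusted p), against 2.79% and 2.21% of all genes. Without hsa-miR-205-5p replicate 2 the counts were 2 and 1, against 7.20% and 5.60%, and without hsa-miR-205-5p replicate 1 they were 4 and 1, against 8.81% and 5.44%.

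The subunits were bright, and in both comparisons with hsa-miR-205-5p the medians of bright genes lay above the median of all genes. Between a mean normalized log2 signal of 6 and 8, the 911 genes tested had a median log2 fold change of 0.31 (hsa-miR-205-5p against the control), and the 30 subunits in this range 0.25. Above 8, the values were 0.32 for 343 genes and 0.45 for 16 subunits, and between 4 and 6 they were 0.20 for 1965 genes and 0.01 for 23 subunits. Between the precursors the medians of all genes and of the subunits were 0.22 and 0.06 between 4 and 6, 0.31 and 0.45 between 6 and 8, and 0.35 and 0.46 above 8. For hsa-miR-214-3p against the control they were 0.00489 and −0.14 between 4 and 6, 0.01 and −0.24 between 6 and 8, and −0.01 and −0.04 above 8. Below 4, the medians were −0.005 for 8755 genes and 0.17 for 11 subunits with hsa-miR-205-5p against the control. In this range they were −0.02 and −0.06 with hsa-miR-214-3p against the control, and 0.05 and 0.33 between the precursors. The part of signal strength in the medians was not tested.

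**Figure D4:**
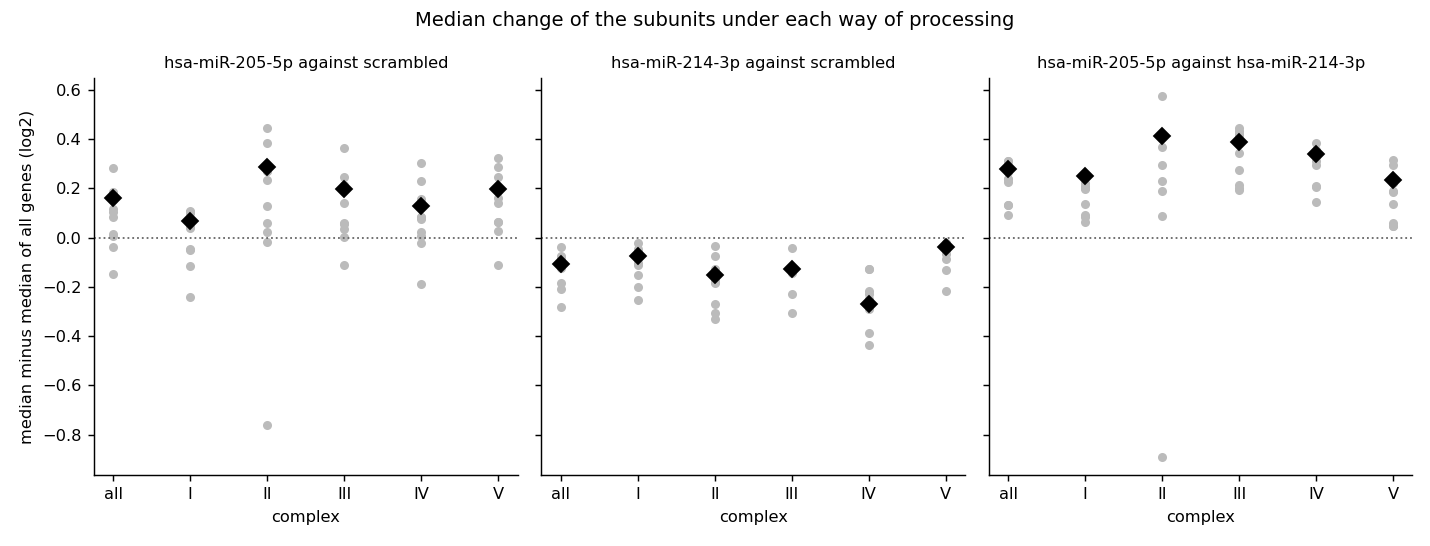
The median log2 fold change of the 80 subunits (all) and of each complex, less the median of all genes tested, is plotted for the 3 comparisons as a black diamond, with the 16 other ways of processing or leaving out an array as grey points. For all subunits with hsa-miR-205-5p against scrambled the grey points run from −0.15 to 0.28 and cross 0, with hsa-miR-214-3p they run from −0.28 to −0.04, and between the precursors from 0.09 to 0.31.

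Some subunits exist as isoforms encoded by separate genes. The 3 genes for subunit c of the ATP synthase encode the same mature protein with different import sequences. With hsa-miR-205-5p they lay at −1.15 in ATP5MC1 (adjusted p = 0.0747 from limma), 0.16 in ATP5MC2 and 0.57 in ATP5MC3 (adjusted p = 0.0907), and against hsa-miR-214-3p at −1.45, 0.18 and 0.77, with ATP5MC1 lower (adjusted p = 0.0309) and ATP5MC3 higher (adjusted p = 0.0318). In complex IV, COX4I1 was measured while its lung and hypoxia isoform COX4I2 was not well above background, and the muscle isoform COX6A2 and COX8C were not tested either, beside COX6A1 at 0.44 and COX8A at 0.32 with hsa-miR-205-5p. COX6B2, the testis isoform of COX6B1, had a probe well above background that lay at 0.01, −0.02 and 0.03 in the 3 comparisons, while another probe of the same transcript was well above background on 0 of 6 arrays, with COX6B1 at 0.18, −0.35 and 0.53. COX7A2 and COX7A2L lay at 0.26 and −0.30 with hsa-miR-205-5p, and neither passed. COX7A2L is a member by its symbol, although its product is also known to act in the assembly of supercomplexes. NDUFA4 and NDUFA4L2 are listed under other symbols, COXFA4 and COXFA4L2, in the gene table used. COXFA4 was taken with the carriers below.

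Different probes of the same gene disagreed in 5 subunits against the control, where the log2 fold changes of the kept probes with hsa-miR-205-5p lay more than 1 apart. SDHA, the flavoprotein of complex II, had 4 kept probes. The brightest had signals of 5.10 and 4.57 with hsa-miR-205-5p and of 4.77 and 4.08 in the control, and lay at 0.41 on the log2 scale (limma, adjusted p = 0.365). The other 3 were all called lower, at −1.31, −1.77 and −1.72 (adjusted p = 0.00978, 0.00903 and 0.0342). The brightest SDHA probe thus went against 3 others, and with the mean over all kept probes SDHA was called lower, at −1.10 (adjusted p = 0.0251). SDHA has closely similar pseudogene copies, and which transcripts each probe binds was not examined. SDHC, a membrane anchor of complex II, had a brightest probe at 0.32 and a probe called lower at −2.41 (adjusted p = 0.0135). Its other kept probe passed the filter only through the hsa-miR-205-5p arrays and was well above background on 1 of 2 control arrays, so no change is given for it. NDUFA10 had a dimmer probe called lower at −1.16 (adjusted p = 0.0124) beside 0.58 on the brightest. COX7A2L had probes at −1.89 and −0.30, and UQCR10 had probes at 0.35 and −1.22 with another near 0, none of which was called against the control. Between the precursors, the dimmer COX7A2L probe was called lower at −2.58 (limma, adjusted p = 0.0201), beside −0.01 on the brightest. With the mean over all kept probes COX7A2L was called lower there, at −1.30 (adjusted p = 0.0235). The dimmer NDUFA10 probe was also called lower between the precursors, at −1.46 (adjusted p = 0.0049), beside 0.74 on the brightest. With hsa-miR-214-3p against the control, 0 probes of these 5 genes were called. Of the 80 subunits, 15 had several kept probes.

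**Figure D5:**
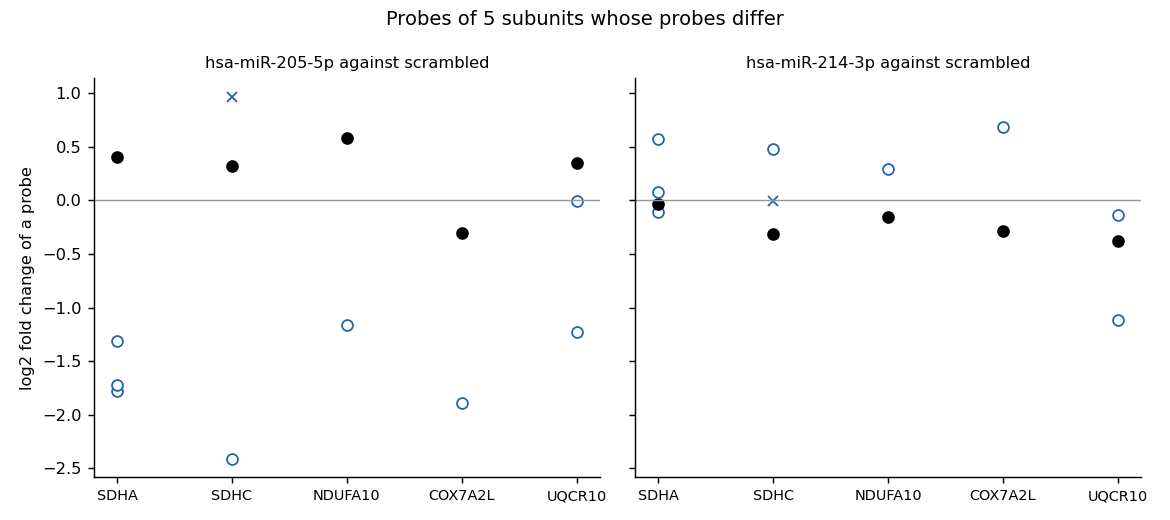
The log2 fold change of each kept probe is plotted for SDHA, SDHC, NDUFA10, COX7A2L and UQCR10, with the brightest probe filled and the others open, for each precursor against the scrambled control, and a cross for the SDHC probe that was not well above background on all arrays compared. With hsa-miR-205-5p, 3 of 4 SDHA probes lie between −1.77 and −1.31 while the brightest lies at 0.41.

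In complex II with hsa-miR-205-5p, then, SDHB and 3 of 4 SDHA probes were called lower, SDHC had a probe called lower beside its brightest probe at 0.32 and SDHD, the other membrane anchor, lay at 0.52 on its brightest probe (adjusted p = 0.0889), its 3 probes running from 0.03 to 0.52. Taking the mean over all kept probes placed the complex II median at −0.76 relative to all genes, against 0.29 with the brightest probes. The other complexes lay between 0.10 and 0.25 with that choice.

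The promoters of the 3 subunits called lower against the control are shown because all of them hold the same short pattern. From the RefSeq promoter table (GRCh38.p14), 66 of the 80 subunits had a promoter of 300 bases, 250 before and 50 after the start. These were searched on both strands for patterns of factors known to drive respiratory genes, GABPA (CCGGAAG), NRF1 (GCGC, any base and TGCGC) and YY1 (AANATGGC, where N is any base). The stretches below run from 150 bases before the start to 30 after it, 5′ to 3′ on the gene's strand, with GABPA and YY1 patterns in capitals. COX4I1 lies at chr16:85799545-85799724 (plus), NDUFA13 at chr19:19516075-19516254 (plus) and SDHB at chr1:17054003-17054182 (minus).
COX4I1: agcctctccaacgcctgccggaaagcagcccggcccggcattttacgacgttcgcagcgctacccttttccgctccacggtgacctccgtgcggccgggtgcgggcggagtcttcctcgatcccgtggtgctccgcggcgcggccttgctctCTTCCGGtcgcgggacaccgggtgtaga
NDUFA13: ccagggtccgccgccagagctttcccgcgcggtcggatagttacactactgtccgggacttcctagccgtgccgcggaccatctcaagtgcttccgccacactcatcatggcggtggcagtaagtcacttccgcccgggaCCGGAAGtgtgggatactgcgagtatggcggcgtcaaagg
SDHB: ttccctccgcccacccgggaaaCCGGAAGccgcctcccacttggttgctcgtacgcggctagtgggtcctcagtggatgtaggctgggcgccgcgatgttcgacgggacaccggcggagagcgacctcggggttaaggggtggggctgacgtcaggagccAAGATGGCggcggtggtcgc
The GABPA pattern starts at position 3 after the start in COX4I1, in reverse complement, and at −10 and −128 in NDUFA13 and SDHB, and SDHB also holds a YY1 pattern from position 11. It was noticed after the values were seen.

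Over all 66 promoters, 30.3% of the subunits held the GABPA pattern, 24.2% the NRF1 pattern and 33.3% the YY1 pattern, against 10.7%, 6.28% and 6.82% of the 27305 promoters of the table. At least 1 of the 3 patterns stood in 63.6% of the subunits and in 20.8% of all promoters. The GABPA pattern was held by 5 of 31 promoters in complex I, 2 of 3 in complex II, 3 of 7 in complex III, 5 of 12 in complex IV and 5 of 13 in complex V, and the NRF1 pattern by 4 of 7 in complex III and 0 of 12 in complex IV. NDUFA6, the subunit called higher, held a YY1 pattern. The other 17 promoters with a GABPA pattern belonged to subunits not called against the control, of which 2 lay below 0, NDUFB7 and NDUFS3 at −0.78 and −0.58, and 15 above 0, such as COX5B, ATP5MG and UQCRH at 0.48, 0.52 and 0.65. The ATP5MG value is uncertain, as ATP5MGL, at 0.41, is nearly identical in sequence. These matches describe letters in a window, and binding was not examined.

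The factors that regulate genes of the subunits were also measured. Of 11 regulators tested, 0 were called lower or higher with hsa-miR-205-5p (at no limit on fold 1 was lower) and 0 with hsa-miR-214-3p, and 1 was lower between the precursors. Over all genes 7.98% were called lower and 4.79% higher with hsa-miR-205-5p, 2.02% and 1.09% with hsa-miR-214-3p, and 11.3% and 9.19% between the precursors, so for a list of 11 these counts are near the background. POLRMT, the mitochondrial RNA polymerase, fell by 0.76 on the log2 scale with hsa-miR-205-5p (adjusted p = 0.0287 from limma), and PPARGC1B, a coactivator of respiratory genes, was lower with hsa-miR-205-5p than with hsa-miR-214-3p at −1.43 (adjusted p = 0.00949). GABPB1, the partner of GABPA, lay at 0.46, YY1 at 0.19 and TFAM at 0.30 with hsa-miR-205-5p, and none of them passed. Between the precursors, with no limit on fold, 2 regulators were lower and 4 higher with hsa-miR-205-5p, the latter being GABPB1 at 0.76, TFAM at 0.64, YY1 at 0.61 and PPRC1 at 0.55 (limma, adjusted p between 0.0217 and 0.0455), against 16.0% and 17.9% of all genes. GABPA itself scattered too widely to be read, at −0.38 and 2.60 on the hsa-miR-205-5p arrays, and NRF1 was not well above background there.

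Assembly factors were called in both directions. The shares over all genes are those given for the regulators. Of 17 complex I factors tested, FOXRED1 fell with hsa-miR-205-5p by 1.66 on the log2 scale (limma, adjusted p = 0.00843), and NDUFAF4 and NDUFAF3 were called lower with hsa-miR-214-3p at −1.95 and −1.32 (adjusted p = 0.0335 and 0.0385). Between the precursors 1 was lower and 5 were higher with hsa-miR-205-5p, at a list median of 0.68 against 0.12 over all genes. Of the 4 complex II factors, SDHAF2, which puts the flavin into SDHA, fell with hsa-miR-205-5p by 1.86 (adjusted p = 0.00982) and 0 were called with hsa-miR-214-3p. SDHAF4 was called higher with hsa-miR-205-5p (adjusted p = 0.0214), but it passed the filter on dim probes only through those arrays and was well above background on 1 of 2 control arrays, so it had to differ. Of 8 complex III factors, UQCC6 was called higher with hsa-miR-205-5p at 2.27 (adjusted p = 0.0108), 0 were called with hsa-miR-214-3p, and between the precursors 1 was lower and 2 were higher. Of 21 complex IV factors, COA3, which helps COX1 synthesis, was called lower with both precursors, at −1.04 for hsa-miR-205-5p (adjusted p = 0.0272) and at −1.87 for hsa-miR-214-3p (adjusted p = 0.0298), and the copper chaperone COX17 was called lower with hsa-miR-214-3p at −1.37 (adjusted p = 0.0332). Between the precursors 2 complex IV factors were lower and 3 were higher with hsa-miR-205-5p. Both precursors share the control arrays. The calls with hsa-miR-214-3p, those of NDUFAF4, NDUFAF3, COA3 and COX17, were lost in the 8 of 17 other settings in which limma called 0 of all genes in that comparison. These were no filter, only the 4 arrays compared, the replicate block and leaving out any array except scrambled control replicate 2. Of 2 complex V factors, TMEM242 fell with hsa-miR-205-5p by 1.16 (adjusted p = 0.0149). Of 8 carriers and companions, which include cytochrome c and the adenine nucleotide carriers, 0 were called against the control with either precursor, and between the precursors only NDUFAB1, the mitochondrial acyl carrier protein, was called, higher with hsa-miR-205-5p at 1.34 (adjusted p = 0.0221). COXFA4 rose under 2-fold with hsa-miR-205-5p, by 0.72 (adjusted p = 0.0396).

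The tricarboxylic acid cycle feeds NADH and succinate to the chain. With hsa-miR-205-5p, 9 of its 13 genes had values below 0, 3 were called lower and 0 higher, and the median was −0.59 against 0.08 over all genes, where 7.98% were called lower. Control replicate 1 lay below replicate 2 in 9 of the 13 genes, and the median was −0.18 against replicate 1 alone and −1.003 against replicate 2 alone. The part of the control difference was not tested. IDH3B and IDH3G, subunits of the NAD-dependent isocitrate dehydrogenase, were called lower at −2.12 and −1.23 (adjusted p = 0.0145 and 0.0118 from limma). The third was DLD, shared by the pyruvate and 2-oxoglutarate dehydrogenases. It was measured above background on neither hsa-miR-205-5p array and passed the filter on dim probes only through the other groups, so it had to differ, and its fall is known only as at least 1.41-fold (limma, adjusted p = 0.0104). IDH3A had signals of 0.78 and 0.72 with hsa-miR-205-5p, 3.09 and 2.97 with hsa-miR-214-3p and 1.08 and 3.02 in the control. It was not called against the control (−1.30, adjusted p = 0.181) and was lower than with hsa-miR-214-3p (−2.27, adjusted p = 0.0397). In that comparison 4 of the 13 genes, DLD again among them, were called lower and 0 higher, at a median of −0.90, where 11.3% of all genes were called lower and 9.19% higher and their median was 0.12. With hsa-miR-214-3p against the control 0 were called, at a median of −0.06.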

How the data were processed

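Agilent 1-colour human expression arrays, 6 in all and 2 per group, read the RNA of MDA-MB-231 cells, and groups follow the sample labels. For scanning, the authors used Agilent Feature Extraction 11.0 (per the labels), and the deposited processed signal is a linear intensity after subtraction of background. A deposited table of log2 values, quantile normalized as its 6 identical sorted columns show, was used as an alternative. The fits used limma 3.58.1 under R 4.3.3, promoters were searched in Python 3.11.15, and figures were drawn with matplotlib 3.10.9.

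Control and outlier spots were left out, spots of a probe were averaged as log2 intensity, and each array's 75th percentile was subtracted. Of 50599 probes, 18464 were kept because some group had them well above background on both of its arrays. Probes were named through their accessions in the RefSeq table (83.3% of kept probes), used for names only since the array design rests on another build. lmFit and eBayes ran on all 6 arrays (3 residual and 2.48 prior degrees of freedom) with p-values adjusted by Benjamini-Hochberg across the kept probes, and was tested on simulated data. Where nothing says that arrays came from separate cultures, p-values measure only the spread between these samples, which may be technical. The members and lists were chosen with earlier results of these data known. Named are called members, the largest changes per complex, core subunits, isoform pairs and members whose probes disagree. The values of 1 member are not reported here, though counts and medians include it.

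Alternatives were normexp (offset 50, on the median signal, as the files hold no mean signal column), quantile normalization, scaling to the median, the percentile over bright probes, the authors' table, no filter and a stricter filter, only the 4 arrays compared, a replicate block, leaving out each array, no fold limit, the methods' t-test, the mean over probes, an intensity trend with robust spread and, chosen after seeing the data, unadjusted p and the medians within signal ranges. No slide block was possible, since 1 slide held every array.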

Additional observations from a re-analysis of the deposited data

How the results depend on the processing

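For the members called lower with hsa-miR-205-5p against the control (3), the counts were 5 with no fold limit, 5 with the intensity trend and robust spread, 7 at limma's unadjusted p, 6 with normexp, 9 with scaling to the median and 0 under the methods' t-test after adjustment (2 before it), and leaving out 1 array gave 0 to 8. For those called higher (1), they were 5 with no fold limit and 0 with normexp, with scaling to the median, with no filter and under the methods' t-test after adjustment (1 before it), and leaving out 1 array gave 0 to 2. With hsa-miR-214-3p (0 and 0), quantile normalization called 1 higher, and leaving out 1 array gave 0 to 1 lower and 0 to 3 higher. Between the precursors, no filter called 3 lower, against 7 as reported, and leaving out 1 array gave 0 to 9. Higher calls (2) became 20 with no fold limit, 1 with normexp, with scaling to the median and with no filter, and 0 to 2 on leaving out 1 array. The share of all genes called moved as well. With no filter it was 0.924% lower and 0.515% higher with hsa-miR-205-5p, 0% both ways with hsa-miR-214-3p, and 3.34% and 2.40% between the precursors. On leaving out 1 array it ran from 0% to 11.7% lower and 0% to 8.89% higher with hsa-miR-205-5p, to 4.13% and 5.50% with hsa-miR-214-3p, and to 12.6% and 10.0% between the precursors. The cause of these moves was not tested. For the counts at unadjusted p with the 2-fold limit, here and above, the share of all genes was not taken.

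The median of the members less that of all genes was 0.16 with hsa-miR-205-5p and became −0.0361 with normexp, 0.0066 with quantile normalization, 0.0144 with the authors' table and −0.147 with no filter, and 0.0838 to 0.284 on leaving out 1 array, so its sign was not kept. It was −0.11 with hsa-miR-214-3p, −0.207 with normexp and −0.283 with no filter, and −0.183 to −0.0383 on leaving out 1 array, below 0 in all 16 settings. Between the precursors it was 0.28, and 0.13 with quantile normalization, 0.13 with the authors' table and 0.0919 with no filter. Scaling to the median moved the median of all genes from 0.08 to −0.31 with hsa-miR-205-5p and from −0.01 to −0.18 with hsa-miR-214-3p. The medians compared across settings are therefore given relative to the median of all genes, while those listed by complex for each comparison are not. With the replicate block, which does not pair the samples (replicate differences of the groups correlated at 0.01, −0.05 and 0.11 over 18464 probes), 2 members were called lower and 1 higher with hsa-miR-205-5p, SDHB being lost (adjusted p = 0.0569), 0 and 0 with hsa-miR-214-3p, and 7 and 2 between the precursors, where ATP5F1B was lost. Where 1 array was left out, its partner was taken to have the spread of the other groups.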
